A study of Mus musculus with 6 samples.

Results

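The cytosolic ribosomal proteins are described here as 63 genes of the 19933 measured, chosen by their symbols alone: Rpl or Rps followed by a number, with Rplp0, Rplp1, Rplp2 and Rpsa, and without the Rps6 kinases. They hold 54 canonical proteins, 33 of the large and 21 of the small subunit. A further 7 are paralogs (Rpl10l, Rpl32l, Rpl39l, Rpl3l, Rpl7l1, Rps27l and Rps4l). The remaining 2 match by their letters but do not encode ribosomal proteins: Rps19bp1, named for a protein that binds Rps19, and Rps23rg1, a retrotransposed gene. A probe set is the group of array probes summarised as 1 value, and each gene is represented by the probe set that names it alone and has the highest mean over the 6 arrays. Another 20 symbols that fit the rule had no probe set of their own and are not described as genes, among them Rpl11, Rpl13a and Rpl3.

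RNA came from jejunal epithelial cells, the lining of the middle small intestine, on 6 Affymetrix Gene 1.0 ST arrays. The 3 controls had the genotype R26-M2rtTA, a doxycycline-dependent transactivator placed at the ubiquitously active Rosa26 locus. The 3 other mice, called MSI2-induced after their genotype TRE-MSI2::R26-M2rtTA, carried in addition a transgene of the RNA-binding protein MSI2 under a promoter that this transactivator switches on. Every mouse, controls included, drank doxycycline for 24 hours, so an effect of the drug or of the transactivator alone is shared by both groups.

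A ribosome is built from a large and a small subunit, each a shell of proteins around ribosomal RNA, and the proteins are made in near-equal amounts because each is needed once per subunit in most cases. Most of their mRNAs begin with a cytosine followed by a run of pyrimidines, the 5′ terminal oligopyrimidine (TOP) motif, through which the kinase mTOR and the protein Larp1 control their translation together. Dividing cells of the intestinal crypt are heavy producers of ribosomes, and the amount of mRNA measured on an array says nothing of how much of it is translated.

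RefSeq sequences (GRCm38.p6) around annotated start sites are shown for 8 genes whose values carry the comparison. Each is 30 bases long, 12 before the start and 18 from it, written 5′ to 3′ on the gene's strand. Capitals mark a TOP-like run, defined as C followed by at least 4 more C or T and beginning within 5 bases of the annotated start.
Rps15a: tctttctgccatCTTCCCTCgccggtgagt
Rps6: cggaagtcgggCCTCTTTTTCgtgacgcct
Rpl28: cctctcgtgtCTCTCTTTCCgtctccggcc
Rps27l: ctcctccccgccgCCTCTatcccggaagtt
Rpl27: ctctgttcctgtctgctgctcgtgctgcta
Rpl7l1: aggctgcgcaagcgcagtagctgaagcacc
Rps3: gcaagggtcgccgcgctgcgcggcgtcatt
Rpl5: cacgtcgcttgcgtgctggtggtgctacat
The windows lie at chr7:118116130-118116159 (minus strand) for Rps15a, chr4:86857350-86857379 (minus) for Rps6, chr7:4792953-4792982 (plus) for Rpl28 and chr9:66946074-66946103 (plus) for the upstream of the 2 starts of Rps27l. They lie at chr11:101442233-101442262 (plus) for Rpl27, chr17:46782639-46782668 (minus) for Rpl7l1, chr7:99483692-99483721 (minus) for Rps3 and chr5:107900516-107900545 (plus) for Rpl5. At the starts shown, the gene with the largest difference and the one with the lowest both had such a run. All other genes shown, with or without a run, lay between them by definition. The downstream start of Rps27l, not shown, had no such run. An annotated start can miss the true first base, so a missing run says only that these letters are not at that place.

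The gene that the genotype names was read first as a check of the labels. Msi2 had log2 expression levels of 11.30, 9.53 and 9.32 in the controls and 11.23, 10.58 and 11.44 in the MSI2-induced arrays. The array labelled control 1 lay among the induced arrays, so the groups overlapped, and the difference of 1.03 ± 0.55 (log2, SE) did not pass in limma (adjusted p = 0.257). Without that array the difference was 1.66 ± 0.26 and passed (limma adjusted p = 0.00958). The related gene Msi1 read 7.20, 7.97 and 7.62 in the controls and 13.44, 12.82 and 13.53 in the induced arrays, with no overlap. Its difference was 5.66 ± 0.26 (limma adjusted p = 0.000818), larger than the 1.03 of Msi2. The labels were thus separated by Msi1 more than by the gene in the genotype, and the reason was not tested. The array labelled control 1 also stood apart over all probe sets, correlating with the other controls by 0.978 and 0.979 while those correlated by 0.996 with each other. Its mean level over 7 measured proliferation markers was 10.94, against 10.04 and 10.10 in the other controls. The counts and the members described in full are therefore given with and without it, and the part of any cell-type difference in the results was not tested. Array medians were between 6.42 and 6.46 on the log2 scale.

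Messenger RNA of the ribosomal proteins was slightly higher after induction for most members, but hardly any single gene passed the test. The MSI2-induced mean was above the control mean in 57 of 63 members, where 54.2% of all genes had a higher mean. The median difference over the members was 0.19 on the log2 scale, a 1.14-fold ratio, with quartiles of 0.12 and 0.27, and the median over all genes was 0.02. At an adjusted p under 0.05 in limma (Benjamini-Hochberg, adjusted across the whole table), 1 member rose (Rps15a), where 8.97% of all genes rose. None fell, where 9.65% of all genes fell. At the weaker rule, 5 members were higher at an unadjusted p under 0.05, against 16.9% of all genes, and 1 was lower, against 16.3%. Groups did not overlap for 5 members with higher values, against 19.5% of all genes, and for 3 with lower values, against 17.5%. In bulk RNA, fewer cells of a type and less RNA per cell cannot be told apart.

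The array labelled control 1 had the highest control level in 62 of 63 members, where it was the highest control for 39.2% of all genes. It was at or above the lowest induced array in 58 members, against 64.1% of all genes. In 43 members it was above the MSI2-induced mean. Its members lay a median of 0.36 log2 units above the mean of the other 2 controls, and it was above all 5 other arrays in 23 members. On the same scale the median was 0.43 in MSI2-induced 1, 0.16 in MSI2-induced 2 and 0.37 in MSI2-induced 3. Controls 2 and 3 were thus low, MSI2-induced 2 lay between, and the other 3 arrays were high. Controls 2 and 3 were both below every induced array in 50 of 63 members, against 29.5% of all genes. MSI2-induced 2 was the lowest induced array in 56 members, against 43.9% of all genes. Each gene's deviation from its own mean shows the same split across subunits in the heat map of members by array.

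**Figure D1:**
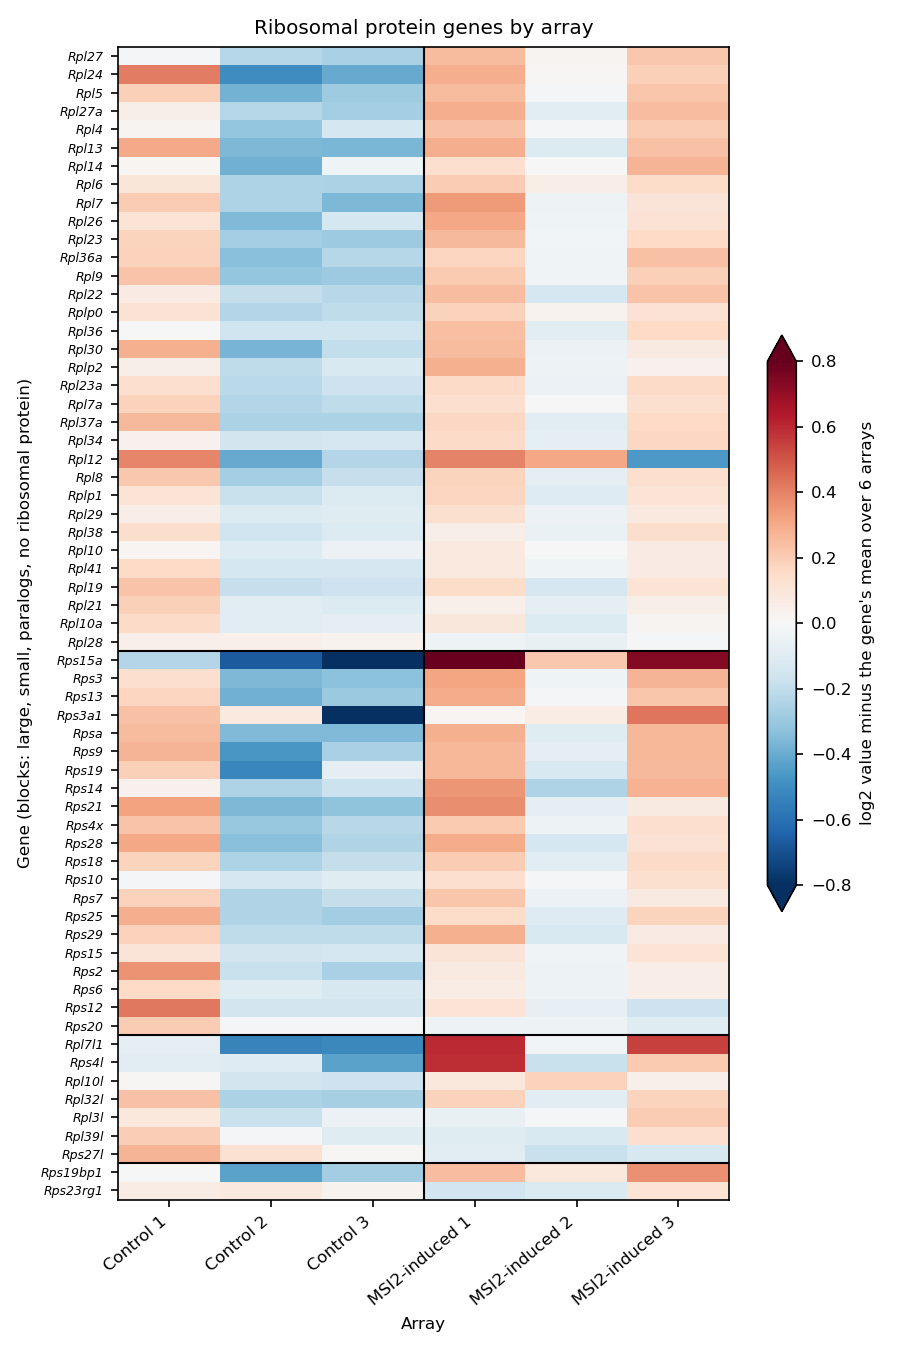
Log2 expression of 63 genes (rows, in 4 blocks: large subunit, small subunit, paralogs and the 2 genes that are no ribosomal proteins) on 6 arrays (columns), coloured by the deviation from the gene's own mean; the colour scale stops at 0.8 in either direction. Controls 2 and 3 are mostly blue, while the array labelled control 1 and MSI2-induced 1 and 3 are mostly red, and Rps15a and Rpl7l1 show the widest split between the groups.

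Without the array labelled control 1, 17 members rose and none fell, where 13.4% of all genes rose and 14.4% fell. The median difference of the members was then 0.33. Each of the 63 had a larger difference than with that array. This follows from control 1 lying above the mean of the other controls in every member, and is no separate result. Two-group differences with and without the array labelled control 1 are drawn side by side in the plot of the 63 differences. Leaving out control 2, control 3, MSI2-induced 1 or MSI2-induced 3 left 0 members past the threshold, where 2.39%, 2.39%, 3.31% and 2.62% of all genes rose. Leaving out MSI2-induced 2 gave 3 (Rpl7l1, Rps14 and Rps15a), where 11% of all genes rose. With the replicate number as a block, 3 members rose (Rps15a, Rpl7l1 and Rps19bp1), where 12.7% of all genes rose. With sex as a block, 0 members rose, where 5.36% of all genes rose and 5.47% fell. By their transcripts, the controls were female, male and female and the induced mice male, male and female. Sex was thus unbalanced between the groups. The number of members with a higher induced mean stayed between 53 and 59 of 63 over the arrays left out in turn, and it was 55 with each array centred on its median.

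**Figure D2:**
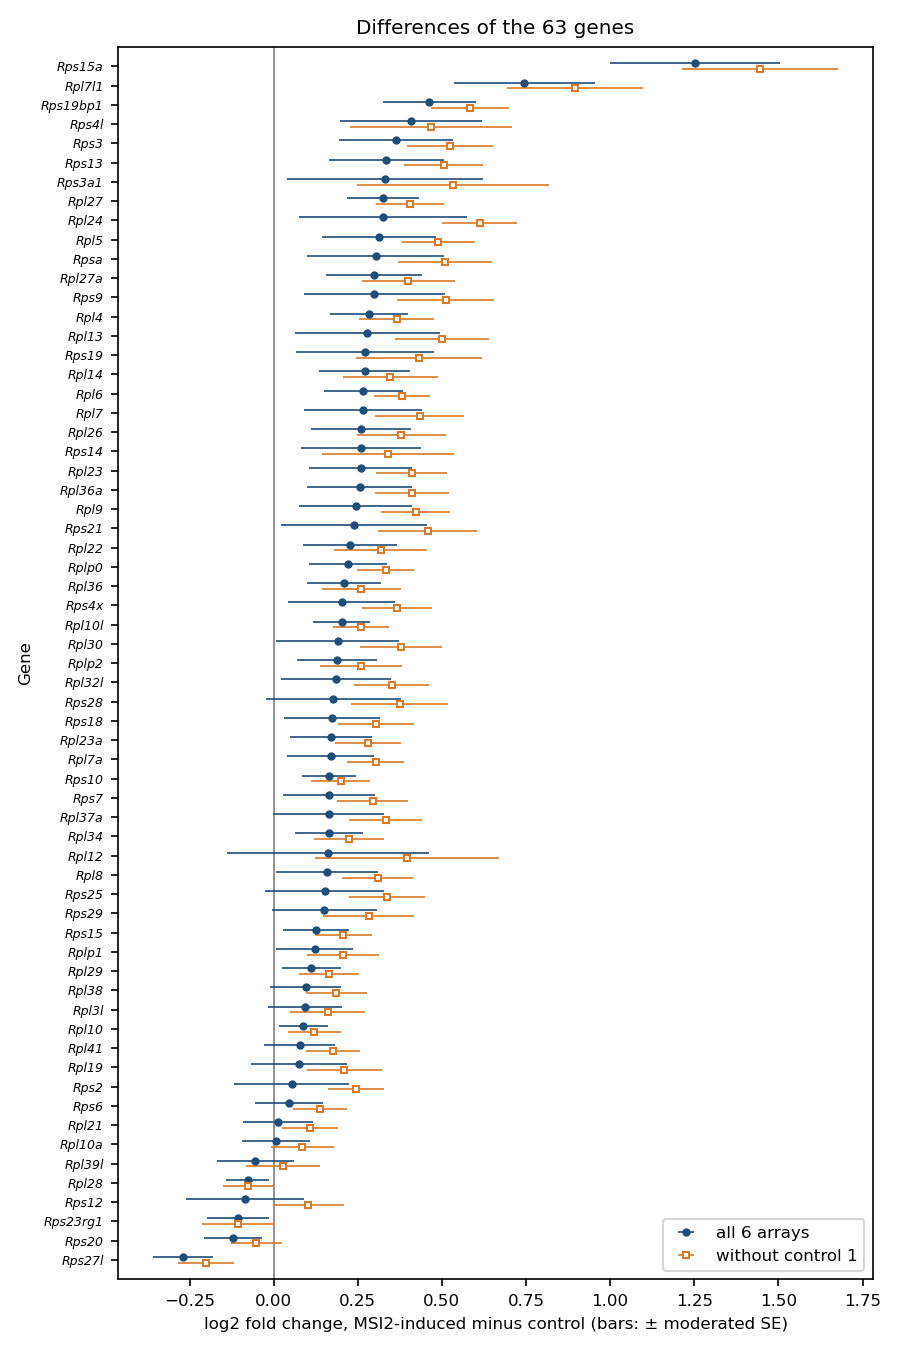
Log2 fold change of each of the 63 genes, MSI2-induced minus control, with all 6 arrays (filled circles) and without the array labelled control 1 (open squares); bars are moderated standard errors from limma and genes are ordered by the first value. Every open square lies to the right of its circle, as it must where control 1 is above the mean of the other controls. By the circles, Rps15a at 1.25 and Rpl7l1 at 0.75 stand above the rest, which lie between -0.27 and 0.46.

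Rps15a, a small-subunit protein bound to 18S RNA in the body of the subunit, was the member that rose. It had levels of 8.97, 8.54 and 8.23 in the controls and 10.13, 9.42 and 9.94 in the MSI2-induced arrays. The groups did not overlap, and the lowest induced array was above the highest control. The means were 8.58 ± 0.37 and 9.83 ± 0.37 (SD, n = 3 each), a 2.38-fold ratio, and the log2 difference was 1.25 ± 0.25 (SE, limma adjusted p = 0.0231). Without the array labelled control 1 it was 1.45 (0.0098), and it stayed between 1.08 and 1.46 when single arrays were left out. The call was lost without control 2 (0.0872), control 3 (0.0818), MSI2-induced 1 (0.0754) or MSI2-induced 3 (0.0926), and with sex as a block (0.0546), all limma adjusted p-values. Rps15a is represented by 1 probe set. The 2 probe sets annotated jointly to Rps15a and 2 of its pseudogenes had differences of 0.39 each, with limma adjusted p-values of 0.218 and 0.261. Probes of different sets read different transcripts or parts of them, so the size of this difference depends on which set is read.

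In the small subunit 19 of 21 canonical members had a higher induced mean, with a median difference of 0.18. Differences of at least 0.2 were found for 10 of them: Rps4x, Rps21, Rps14, Rps19, Rps9, Rpsa, Rps3a1, Rps13, Rps3 and Rps15a. Another 7 (Rps15, Rps29, Rps25, Rps7, Rps10, Rps18 and Rps28) lay between 0.13 and 0.18, and Rps6 and Rps2 at 0.05 each. Rps3 sits at the mRNA entry channel and also takes part in DNA repair. It read 11.22, 10.73 and 10.76 in the controls and 11.40, 11.05 and 11.36 in the induced arrays, so the array labelled control 1 overlapped the induced range. Its difference was 0.36 ± 0.17 (SE, limma adjusted p = 0.194), and 0.52 ± 0.13 without that array (0.0327). Rpsa, at the mRNA exit side and also known as a laminin receptor, read 11.48, 10.87 and 10.87 against 11.51, 11.13 and 11.49. Its difference of 0.30 ± 0.20 (limma adjusted p = 0.369) became 0.51 without the array labelled control 1 (0.0455). The 5 measured proteins at the mRNA exit (Rpsa, Rps14, Rps21, Rps28 and Rps3a1) had a median difference of 0.26, with none called, and without the array labelled control 1 Rpsa was called.

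Rps6, the substrate of the S6 kinases downstream of mTOR, was the member with the highest signal and read 13.77, 13.51 and 13.48 against 13.67, 13.57 and 13.66. The ranges overlapped and the difference was 0.05 ± 0.10 (limma adjusted p = 0.814), and 0.14 without the array labelled control 1 (0.282). Rps19 and Rps25 are proteins with known roles of their own, the first mutated in Diamond-Blackfan anaemia and the other needed by some viral internal ribosome entry sites. Their differences were 0.27 ± 0.21 (limma adjusted p = 0.429) and 0.15 ± 0.18 (0.622).

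The 2 small-subunit genes with a lower induced mean were Rps20 and Rps12. Rps20, on the head of the subunit, read 12.99, 12.78 and 12.78 in the controls and 12.75, 12.75 and 12.69 in the induced arrays. The groups did not overlap, but controls 2 and 3 were only just above the induced arrays. The difference was -0.12 ± 0.09 (limma adjusted p = 0.397), and -0.05 without the array labelled control 1. Rps12 read 11.29, 10.72 and 10.72 against 10.98, 10.80 and 10.70, with a difference of -0.08 ± 0.18 (0.798). Its sign rested on the array labelled control 1, without which the difference was 0.10.

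In the large subunit 32 of 33 canonical members had a higher induced mean, with a median difference of 0.19 and a range of -0.08 to 0.33. None was called with all arrays, where 8.97% of all genes rose and 9.65% fell. Without the array labelled control 1, 10 rose, where 13.4% of all genes did. The 16 with differences of at least 0.2 were Rpl36, Rplp0, Rpl22, Rpl9, Rpl36a, Rpl23, Rpl26, Rpl7, Rpl6, Rpl14, Rpl13, Rpl4, Rpl27a, Rpl5, Rpl24 and Rpl27. Another 10 (Rpl29, Rplp1, Rpl8, Rpl12, Rpl34, Rpl37a, Rpl7a, Rpl23a, Rplp2 and Rpl30) lay between 0.11 and 0.19. The 6 from 0.01 to 0.09 were Rpl10a, Rpl21, Rpl19, Rpl41, Rpl10 and Rpl38.

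Rpl27, chosen after its values were seen, was the canonical large-subunit member whose groups did not overlap upward. It read 11.82, 11.60 and 11.57 in the controls and 12.08, 11.85 and 12.04 in the induced arrays. The lowest induced array was only just above the array labelled control 1. The difference was 0.33 ± 0.11 (SE, limma adjusted p = 0.088), and 0.40 without the array labelled control 1 (0.0352). Rpl5, which joins 5S ribosomal RNA and, when free of ribosomes, binds Mdm2, read 12.03, 11.46 and 11.55 against 12.09, 11.83 and 12.06. Its difference was 0.31 ± 0.17 (limma adjusted p = 0.264), and 0.49 without the array labelled control 1 (0.0248). Rpl24, also chosen after its values were seen, read 10.47, 9.56 and 9.66 against 10.35, 10.07 and 10.25. It had the widest gap between the array labelled control 1 and the other controls, 0.86, and its difference went from 0.32 (limma adjusted p = 0.436) to 0.61 (0.0135) without that array. Values by array for 8 members, from the highest difference to the lowest, show this position of the array labelled control 1.

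**Figure D3:**
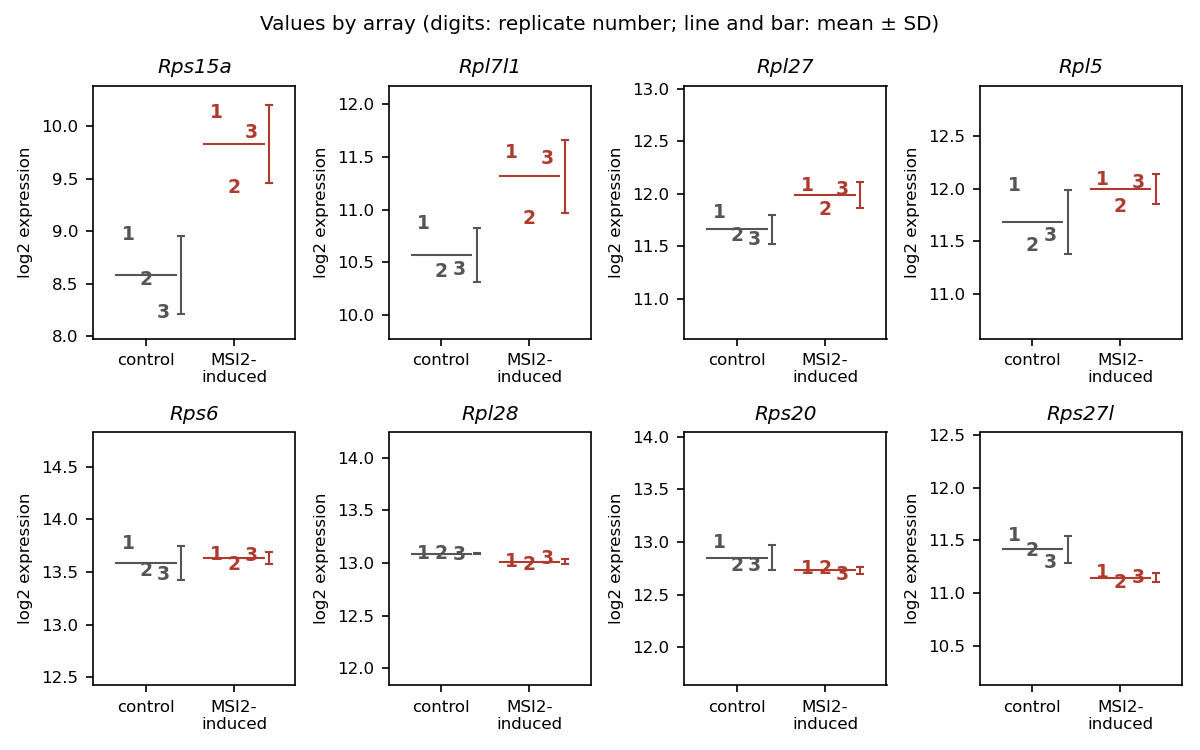
Log2 expression of 8 members in 3 control and 3 MSI2-induced arrays; digits are replicate numbers, lines are group means and bars to their right are ± SD, and every panel spans the same height on the log2 scale. The groups are apart in Rps15a and Rpl7l1, control 1 lies within the induced range in Rpl5 and above it in Rps6, and every induced array lies below the controls in Rps27l.

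The stalk that recruits elongation factors is formed by Rplp0, Rplp1 and Rplp2 on a base with Rpl12. These 4 had differences between 0.12 and 0.22, none called. Rplp0 read 13.39, 13.04 and 13.07 against 13.46, 13.30 and 13.39, a difference of 0.22 ± 0.12 (limma adjusted p = 0.25) that became 0.33 without the array labelled control 1 (0.0384). Rplp1 and Rplp2 had differences of 0.12 ± 0.11 and 0.19 ± 0.12, with limma adjusted p-values of 0.529 and 0.339. The 4 measured proteins around the peptide exit tunnel (Rpl19, Rpl22, Rpl23a and Rpl26) had a median of 0.20. Rpl38 and Rpl10a, which are known for roles in the translation of particular mRNAs, had differences of 0.09 ± 0.11 (limma adjusted p = 0.607) and 0.01 ± 0.10 (0.969). Rpl10, Rpl29 and Rpl41 had differences of 0.09, 0.11 and 0.08, with limma adjusted p-values of 0.472, 0.444 and 0.674. Rpl28 was the large-subunit member with a lower induced mean, reading 13.09, 13.09 and 13.08 against 13.01, 12.99 and 13.04. The groups did not overlap, and all 3 controls were close together, but the difference of -0.08 ± 0.06 did not pass (limma adjusted p = 0.478), nor did -0.07 without the array labelled control 1 (0.54).

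Among the 7 paralogs, 5 had a higher induced mean and none was called with all arrays. Rpl7l1, a relative of Rpl7 that acts in subunit assembly, read 10.87, 10.41 and 10.43 in the controls and 11.54, 10.92 and 11.49 in the induced arrays. The groups did not overlap, though MSI2-induced 2 was close to the array labelled control 1. The difference was 0.75 ± 0.21 (SE, limma adjusted p = 0.0567), with 0.0177 under the replicate block and 0.0257 without the array labelled control 1. It did not pass with sex as a block (limma adjusted p = 0.0737) or without MSI2-induced 3 (0.179). Rps4l read 9.05, 9.04 and 8.71 against 9.73, 8.96 and 9.35, a difference of 0.41 ± 0.21 with overlapping groups (limma adjusted p = 0.24), and 0.47 without the array labelled control 1 (0.224). Rps27l, a target of p53, was the lowest of all members, reading 11.55, 11.40 and 11.29 against 11.19, 11.10 and 11.15. Its groups did not overlap, and the difference was -0.27 ± 0.09 (limma adjusted p = 0.0906), and -0.20 without the array labelled control 1 (0.14). Rpl39l, the dimmest member and known from the testis, read 4.42, 4.21 and 4.13 against 4.13, 4.10 and 4.36, no brighter than sex-specific transcripts read in mice of the other sex (4.07 to 5.06). Rpl3l at 4.57 to 4.95 was as dim. Rpl10l and Rpl32l had differences of 0.20 and 0.19 (limma adjusted p = 0.16 and 0.504).

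A paralog could be set against its canonical partner in 3 pairs. Each array's value of Rpl7l1 minus Rpl7 was -0.35, -0.36 and -0.23 in the controls and 0.18, -0.06 and 0.37 in the induced arrays. Rpl7 itself had a difference of 0.27 ± 0.18 (limma adjusted p = 0.365), so the paralog's difference was larger by 0.48 (exact two-sided permutation test, p = 0.1, the smallest that 3 arrays against 3 allow, and 0.3 adjusted over the 3 pairs). For Rpl10l against Rpl10 the differences of 0.20 and 0.09 were apart by 0.11 (exact permutation p = 0.2, adjusted 0.3). For Rps4l against Rps4x, with differences of 0.41 and 0.20, they were apart by 0.21 (exact permutation p = 0.4, adjusted 0.4). No pair can pass 0.05 in this design.

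Neither of the 2 genes that match by name alone was called with all arrays. Rps19bp1 read 9.16, 8.73 and 8.88 against 9.40, 9.24 and 9.52, without overlap, a difference of 0.46 ± 0.14 (limma adjusted p = 0.0667, 0.0387 with the replicate block and 0.0176 without the array labelled control 1). It did not pass with sex as a block (limma adjusted p = 0.0506) or without MSI2-induced 3 (0.199). Rps23rg1 read 6.71, 6.73 and 6.68 against 6.50, 6.54 and 6.76, a difference of -0.11 ± 0.09 (0.489).

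Where a member had more than 1 probe set, its sets mostly gave similar values, but they need not be separate readings. The 3 sets of Rpl41, for example, had the same difference. Rps15a, the member that rose, had only 1 set of its own. The members had 219 probe sets of their own, and 194 of these had a higher induced mean. In the 39 members with more than 1, the differences of a gene's probe sets spanned a median of 0.05 and at most 0.42, in Rpl23, whose 2 sets gave 0.26 and 0.68. Only Rpl10a and Rps6 held probe sets of both signs, all of them near 0. A further 239 probe sets name a ribosomal protein gene together with other genes, some of them annotated as pseudogenes, and 211 of these had a higher induced mean, with a median difference of 0.14. Ribosomal protein genes have many near-identical processed copies, so a probe set can read more than the gene it names.

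The differences were also described by the signal of the probe set, which is no measure of abundance between genes. The 18 ribosomal protein genes with a mean level of 12 or more had a median difference of 0.09, the 29 between 10 and 12 had 0.26 and the 14 under 10 had 0.21. All genes in the same ranges had medians of -0.07, 0.05 and 0.02, so the members lay above all genes in each range. Without the array labelled control 1 the members' medians were 0.20, 0.37 and 0.36, and those of all genes -0.10, 0.03 and 0.02. Across the 61 ribosomal protein genes, level and difference had Pearson's r of -0.17 and Spearman's rho of -0.39, as a description over genes that share the same arrays.

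Start sites were compared next, since TOP runs define this class of mRNA. RefSeq windows of 300 bases matched 49 of the 61 ribosomal protein genes, with 58 annotated starts. A TOP-like run as defined above stood at 20 of 58 starts, or 34.5%, and at 18.3% of 32851 starts of all genes. The motif CTTCCG, chosen after sequences were seen and searched on both strands, occurred in 36 of the 58 windows (62.1%) and in 16.9% of all. It can share letters with a pyrimidine run. The median GC content was 57% in the members' windows and 52.7% in all. The 18 genes with a run at any start had a median difference of 0.17 and a range from -0.27 (Rps27l) to 1.25 (Rps15a), and the 31 without had a median of 0.24. The ranges of the 2 sets overlapped widely.

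Other mRNAs known to carry the TOP motif were described beside the members. Of 19 measured (translation factors and others such as Npm1, Nap1l1, Tpt1 and Pabpc1), 16 had a higher induced mean and the median difference was 0.23. None was called with all arrays, where 8.97% of all genes rose. Without the array labelled control 1, where 13.4% of all genes rose, 5 were called: Npm1, Nap1l1, Eif3e, Eef1d and Cct4. With the replicate block 3 were called (Npm1, Nap1l1 and Eif3e), near the 12.7% of all genes that rose. These genes were named after their values were seen. Fau, which encodes a small-subunit protein under another name, had a difference of -0.14 ± 0.08 (limma adjusted p = 0.291).

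Genes that chaperone ribosomal proteins or assemble the subunits were described beside the members as well. All 28 measured had a higher induced mean, 14 rose (8.97% of all genes did) and the median difference was 1.09, a 2.12-fold ratio. Eif6, which keeps the large subunit from joining the small one too early, read 11.65, 11.80 and 11.79 against 12.25, 12.26 and 12.36. Its difference was 0.54 ± 0.08 (limma adjusted p = 0.0105) with no overlap. Lsg1, a GTPase that releases the export factor Nmd3 from the large subunit, had a difference of 1.10 ± 0.22 (limma adjusted p = 0.0216). Riok1, a kinase of late small-subunit maturation, and Rrs1, which brings the 5S particle into the large subunit, had differences of 1.15 ± 0.23 (0.0218) and 1.48 ± 0.30 (0.0227). Assembly factors that hold the place of a ribosomal protein were also measured, chosen here after their values were seen: Mrto4 stands in for Rplp0 and Rsl24d1 for Rpl24. Mrto4 had a difference of 1.27 (limma adjusted p = 0.0558) beside 0.22 for Rplp0, and Rsl24d1 had 1.22 (0.0259) beside 0.32 for Rpl24. The count of 14 was 22 without the array labelled control 1, 23 with the replicate block and 7 with sex as a block, where 13.4%, 12.7% and 5.36% of all genes rose. It was 1 when control 2, control 3, MSI2-induced 1 or MSI2-induced 3 was left out, where 2.39% to 3.31% of all genes rose. The array labelled control 1 was a median of 0.78 above the other controls in these genes, and the 3 induced arrays 1.51, 0.96 and 1.43.

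**Figure D4:**
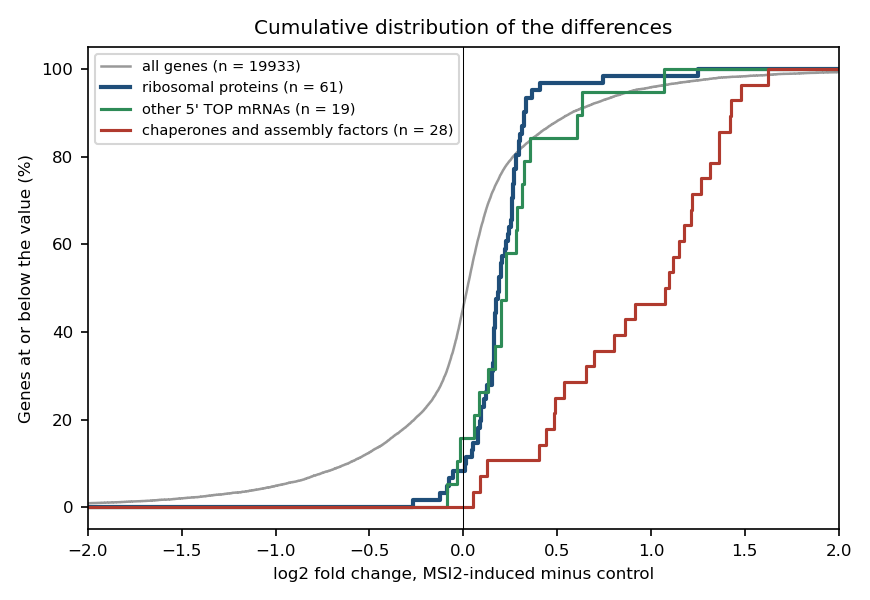
Cumulative share of genes (vertical axis, percent) at or below a log2 fold change, MSI2-induced minus control (horizontal axis, -2 to 2; some of all genes lie outside), for all 19933 genes, the 61 ribosomal proteins, 19 other TOP mRNAs and 28 chaperones and assembly factors. The ribosomal proteins form a steep curve with a median of 0.19, close to the other TOP mRNAs at 0.23, and the assembly factors lie to the right with a median of 1.09.

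Of 16 measured regulators of ribosomal protein mRNA and ribosome number, 5 rose and 2 fell, where 8.97% of all genes rose and 9.65% fell. Eif4ebp1, a translation repressor inactivated by mTOR, read 8.85, 8.97 and 8.73 against 10.71, 10.31 and 10.79, a rise of 1.75 ± 0.15 (limma adjusted p = 0.00259). Myc, a transcription factor that drives ribosome production, rose by 1.79 ± 0.37 (0.0245), from 10.24, 9.06 and 9.67 to 11.93, 10.90 and 11.52. Mdm2, the ubiquitin ligase that free Rpl5 binds, rose by 0.56 (0.0343), as did Larp4b, by 0.38 (0.0397), and Rheb, an activator of mTOR, by 0.56 (0.04). Tsc2, a restraint on Rheb, fell by 0.74 (limma adjusted p = 0.0115), from 9.37, 9.39 and 9.47 to 8.52, 8.89 and 8.61, and Mtor fell by 0.46 (0.039). Larp1, which binds TOP mRNAs, read 11.03, 10.65 and 10.73 against 10.97, 10.78 and 10.85, a difference of 0.06 ± 0.12 (0.804). Without control 2, control 3, MSI2-induced 1 or MSI2-induced 3 the count of rises was 1, where 2.39% to 3.31% of all genes rose. Without the array labelled control 1 it was 8, with 1 fall, where 13.4% of all genes rose and 14.4% fell. It was 8 with the replicate block and 2 with sex as a block, where 12.7% and 5.36% of all genes rose. With arrays centred on the brightest of the other genes it was 3, with no share of all genes to set beside it. Larp4b, Rheb, Mtor and Larp1 were chosen after their values were seen.

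Markers of other cells moved between the groups, and their part in the members' values was not tested. All 16 epithelial markers were measured, with mean levels of 11.95 to 12.28 in the controls and 11.48 to 12.07 in the induced arrays. Of these, 2 rose and 4 fell, where 8.97% of all genes rose and 9.65% fell. For T cells, including lymphocytes of the epithelial layer, 10 of 13 measured markers fell, and the mean level was 7.75 to 8.20 in the controls and 6.11 to 6.89 in the induced arrays, lowest for Cd2. Of 5 crypt-base markers 3 fell, with mean levels of 9.08 to 9.20 against 7.66 to 8.02. No proliferation marker of 7 was called, and their mean levels were 10.94, 10.04 and 10.10 in the controls and 10.57, 10.20 and 10.22 in the induced arrays, highest in the array labelled control 1. None of the measured markers of B cells or of stroma was called, and 1 of 8 myeloid markers rose.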

How the data were processed

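The authors deposited log2 expression values per probe set, 1 column per array. The submitters' processing notes name Partek and RMA without versions, so a global change in RNA amount is removed and dim or near-saturated probe sets can be compressed. No genome build for the probes was used. Of 28350 probe sets 21780 named 1 gene, 1618 several and 4952 none; names were updated through a RefSeq GRCm38.p6 table (21689 matched).

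The test was limma 3.58.1 (R 4.3.3; two-sided, lmFit and eBayes with only the group in the model), adjusted by Benjamini-Hochberg over 19933 genes; the fit was tested on simulated data. Probe sets naming several genes were read from a separate limma fit, adjusted over all 28350 probe sets. Log2 differences are MSI2-induced minus control, with moderated standard errors. The members and lists were chosen with earlier results of these data known. Named genes were those past the threshold, the 5 highest and 5 lowest differences, paralog pairs, 16 textbook genes where measured, the brightest and dimmest member, up to 4 called genes of each companion list, and Msi2 and Msi1; others are marked. The labels call the samples biological replicates but name no animals, and sex was read from Xist and Y-linked transcripts.

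Both groups carry the numbers 1 to 3. After subtracting group means, arrays of the same number correlated by 0.522, 0.413 and 0.130 over all genes. The numbers were therefore treated as a pairing that comes from the data, but only in the fit with the replicate block. The main fit and the permutation tests of paralog pairs left the pairing out. Over the ribosomal proteins alone the 3 pairs gave 0.326, 0.028 and -0.109, and control 3 correlated more with MSI2-induced 2 (0.318 over all genes) than with its own number. No label says what a number shares, and such deviations are not independent. Alternatives were the replicate block, probe set choice, filters, scaling, variance model, array weights, sex, thresholds and leaving out each array. Protein sequences were not used here.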

Additional observations from a re-analysis of the deposited data

Results flagged for a closer look

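A probe set outside the comparison of genes, because it names a ribosomal protein gene together with a small nucleolar RNA gene, was higher in the MSI2-induced arrays by 0.71 on the log2 scale (limma adjusted p = 0.03). It read 7.47, 7.29 and 7.42 in the controls and 8.05, 7.85 and 8.40 in the induced arrays, with no overlap. It was the 1 called probe set among the 239 that name a ribosomal protein gene with other genes, and small nucleolar RNA genes lie in introns of ribosomal protein genes. The other 4 probe sets that name such a pair had differences from -0.24 to 0.06, none called.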

How the results depend on the processing

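The count of members that rose, 1 with all arrays, was 3 with the replicate block, 2 with either filter on the mean level (at least 5 or 7), 23 with array weights, 0 with sex as a block, 4 at an adjusted p under 0.1 and 0 under 0.01, and between 0 and 17 with single arrays left out (17 without control 1). No member fell under these settings except 1 at an adjusted p under 0.1. Over all genes, rises numbered 3630 (18.2%) with array weights, 1068 (5.36%) with sex as a block, 2729 under 0.1 and 395 under 0.01. With single arrays left out, they numbered between 476 and 2663. Falls numbered 3442 (17.3%) with array weights, 1091 (5.47%) with sex as a block and 406 under 0.01. With single arrays left out, falls numbered between 476 and 2879. Falls under 0.1 and counts with the filters are not given for all genes. The member counts there have no share to be read against. The replicate block changed no other call of a member than those given, and it raised the called assembly factors from 14 to 23. Differences near 0 changed sign: with array weights Rps12 had 0.048 and Rpl39l 0.038, and with median centring Rpl10a had -0.0071. With single arrays left out, Rps12 ranged from -0.18 to 0.10, Rpl39l from -0.14 to 0.028, Rps6 from -0.0095 to 0.14 and Rpl10a from -0.037 to 0.085. Of 487 values of 29 genes under the alternatives, 452 kept direction and side of the threshold. Of the rest, 20 were stronger, 5 weaker and 10 reversed. The cause was not tested. With 3 arrays a group and array weights between 0.33 for control 1 and 1.95 for control 2, differences of the size seen in most members are at the limit of what the arrays resolve, and dim probe sets such as Rpl39l have no measured level.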
